A study of Mus musculus with 54 samples.

Results

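Autophagy is the process by which a cell encloses parts of its own cytoplasm in a double membrane and delivers them to the lysosome, and the genes described here are its core machinery and cargo receptors. The 37 genes were chosen by name, as the rows of the deposited count table that carry one of 37 listed symbols, out of 24421 rows in all. Every one of the 37 had enough reads to be tested among the 14320 genes tested. The cells were hematopoietic stem cells (HSC) of the mouse, sorted from bone marrow of Fgd5 reporter mice on a C57BL/6 background, in which HSC carry the green protein ZsGreen, and the sort combined the SLAM-LSK (wide) surface gate with that fluorescence. All mice received an injection under the skin, of either dmPGE2 (dimethyl prostaglandin E2, a long-acting form of prostaglandin E2) or of its ethanol vehicle, 30 min before the time of irradiation. The dose is labelled 35 µg, while the stated 3.5 µL of a 0.1 mg/ml solution holds 0.35 µg, so it is uncertain. The 54 libraries fall into 6 groups. Non-irradiated mice with vehicle gave 15 libraries of 1 h and 24 h together, and non-irradiated mice with dmPGE2 gave 7 at 1 h. Mice irradiated with 8.53 Gy, a dose lethal to 50% of animals, gave 4 groups of 8 libraries: vehicle at 1 h, dmPGE2 at 1 h, vehicle at 24 h and dmPGE2 at 24 h. The labels state neither the age of the mice nor the copies of the reporter allele.

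Autophagy starts at a kinase complex of Ulk1 or Ulk2 with Atg13, Atg101 and the scaffold Rb1cc1, which the nutrient sensor mTORC1 restrains and the energy sensor AMPK activates. A lipid kinase, Pik3c3 with Pik3r4, Becn1 and Atg14, then marks the growing membrane, Atg9a vesicles and the lipid carriers Atg2a and Atg2b feed it, and a pair of ubiquitin-like conjugation systems attach LC3 and GABARAP proteins to it. Receptors such as Sqstm1 (p62) and Nbr1 hold cargo and bind LC3, and Tfeb is a transcription factor of autophagy and lysosome genes. In HSC, autophagy is known for keeping mitochondrial number and metabolic activity low, and for survival when growth factors are withdrawn. Messenger RNA levels do not measure the flow of material through autophagy, which also depends on protein modification and turnover.

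Several properties of the libraries bear on every result below. Total counts per library ran from 15049364 to 26217041. The 15 columns of non-irradiated vehicle mice carry only 8 tags, and 7 tags occur 2 times; in 7 of 7 such pairs the library most alike was the one with the same tag, although the counts of a pair differed beyond sampling noise. These columns may therefore be 2 libraries of 1 mouse each, and by Xist and Y-linked genes they held 5 females and 10 males against 7 and 8 in the labels. All 15 were kept as separate libraries, as their labels have them, and calls among the members that were lost when same-tag columns were summed are named with each comparison against them. The sample sheet numbers in the column names fall into a lower range, with all 1 h libraries and 8 of these controls, and an upper range, with all 24 h libraries and the other 7 controls. The labels likewise put 8 of these controls at 1 h and 7 at 24 h. If same-tag columns are different mice, a difference between the ranges may be one of labelled time, and range and time cannot be told apart. If they are 1 mouse, a pair cannot differ in time, and controls of 1 of the times may be missing. Which of these holds was not tested. Across the 7 same-tag pairs, 13 of the 37 genes (35.1%) differed between the ranges, against 17.3% of 13178 genes, for example Rb1cc1 by -0.45 and Gabarap by 0.24 (log2, upper minus lower), so the main comparisons with these controls are also given for the same range. No 24 h library carries a tag of the controls or of the 1 h libraries. Controls of the same range do not remove this. In comparisons of 24 h libraries with controls or with 1 h libraries, tag and group therefore cannot be told apart. In the 24 h dmPGE2 group, libraries 5, 6 and 7, all male, stood apart from the other 5 on principal components 2 and 3, and the results of that group are also given without them. HSC markers were present in every group, including Fgd5, and the sum of 9 HSC markers was 3197 to 4930.1 CPM (median 3995) in non-irradiated vehicle libraries.

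The row named Atg4a is uncertain. Its deposited coordinates, chr3:103643953-103646068 (mm10, minus strand), are 1 exon that the GENCODE annotation names Atg4a-ps, a copy inside the opposite strand of Syt6, and not the Atg4a gene of chromosome X; it is called the Atg4a row here. Since the kit marks no strand, reads of a gene and of an overlapping gene on the other strand cannot be told apart, which touches Rb1cc1, Atg14, Becn1, Uvrag, Atg2b, Atg4d, Gabarapl1, Optn and Tax1bp1. Map1lc3b and Atg9a overlap another annotated gene on their own strand.

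Up to 250 bases before the start of 4 genes are printed here, without any base inside the GENCODE bounds of the same gene, because their transcripts moved in different ways: Ulk1, the member with the largest absolute log2 value in 6 of the 12 comparisons, Atg101, which at 1 h was lower with dmPGE2 with and without radiation, Atg3, which was higher at 24 h after radiation while 24 members were lower, and Nbr1, which at 1 h was higher after radiation and, in irradiated HSC, lower with dmPGE2, a call lost without library 6 of that group. Whether the printed bases lie in a transcript of another gene was not checked. Sequences are from RefSeq (GRCm38.p6), 5′ to 3′ on the gene's strand, at chr5:110810098-110810331, minus strand for Ulk1, chr15:101284051-101284271, plus strand for Atg101, chr16:45158579-45158784, plus strand for Atg3 and chr11:101551857-101552106, plus strand for Nbr1. Capitals mark CACGTG, the E-box core of the CLEAR element that Tfeb binds, and TGACG or its reverse complement CGTCA, the core of the cAMP response element that CREB binds downstream of prostaglandin E2 receptors.
Ulk1: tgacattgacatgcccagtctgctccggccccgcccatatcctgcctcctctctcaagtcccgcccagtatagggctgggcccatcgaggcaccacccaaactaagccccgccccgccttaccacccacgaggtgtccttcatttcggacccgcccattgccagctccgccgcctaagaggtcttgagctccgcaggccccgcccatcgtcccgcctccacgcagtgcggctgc
Atg101: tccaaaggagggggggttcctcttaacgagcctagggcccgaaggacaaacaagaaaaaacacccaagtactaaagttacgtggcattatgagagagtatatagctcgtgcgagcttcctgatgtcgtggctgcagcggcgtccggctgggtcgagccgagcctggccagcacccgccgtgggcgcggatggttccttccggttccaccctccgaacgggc
Atg3: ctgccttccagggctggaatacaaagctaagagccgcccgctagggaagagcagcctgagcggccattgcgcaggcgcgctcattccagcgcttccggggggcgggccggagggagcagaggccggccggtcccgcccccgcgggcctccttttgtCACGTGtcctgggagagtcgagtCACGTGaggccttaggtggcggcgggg
Nbr1: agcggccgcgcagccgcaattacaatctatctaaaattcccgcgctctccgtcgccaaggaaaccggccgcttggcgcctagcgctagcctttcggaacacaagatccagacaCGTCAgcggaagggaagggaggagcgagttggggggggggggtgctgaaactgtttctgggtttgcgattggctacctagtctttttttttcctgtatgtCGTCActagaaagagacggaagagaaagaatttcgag
The full windows of 250 bases of 29 of the 37 members could be matched. For each member 1 window was taken, the nearest to its deposited start. The shares of all promoters count every listed promoter, of tested genes or not, so the 2 sets were not built alike. CACGTG stood in 2 of the 29 (6.9%; 6.02% of 32851 promoters), those of Atg3 and Atg5, and TCACGTGA, which contains it, in that of Atg3 (3.45%; 0.785% of all). TGACG on either strand stood in 9 of 29 (31%; 17.8% of all), those of Ulk2, Atg13, Pik3r4, Atg2b, Atg10, Atg16l2, Map1lc3b, Gabarapl2 and Nbr1, and the full TGACGTCA, which contains it on each strand, in that of Atg16l2 (3.45%; 1.55% of all). These counts and shares include bases inside the GENCODE bounds of the same gene: without such bases the matches of Atg16l2, the full TGACGTCA among them, and of Map1lc3b are gone, and those of the other genes named remain. The stretches printed for Ulk1 and Atg101 hold neither motif, which says only that these letters are not in them. A match is a stretch of letters and not a measured binding site.

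Without radiation or dmPGE2 the members spanned a wide range of levels. Per kilobase of exon, Map1lc3b, the gene of the main LC3 protein, was the most abundant, at 252 to 387 RPKM (median 339), and its range lay above that of every other member. Sqstm1 followed at 177 to 236 RPKM (median 198), with the LC3 relatives Gabarapl1 at 145 to 206 RPKM (median 174) and Gabarap at 135 to 210.0 RPKM (median 171), and these 3 ranges overlapped. Tax1bp1, a receptor, lay below them at 90.2 to 121 RPKM (median 99.4). The enzymes and scaffolds were scarcer: Ulk1 had 16.5 to 30.1 RPKM (median 25.6), and the lowest members were Wipi1, a reader of the membrane lipid, at 2.5 to 5.43 RPKM (median 3.95), and Atg2b at 1.94 to 6.53 RPKM (median 3.86). Within gene pairs, Ulk1 had a higher median than Ulk2 (14 RPKM), Map1lc3b than Map1lc3a (22.4), Wipi2 (40.3) than Wipi1, and Atg2a (14.1) than Atg2b. The plot of levels orders all 37.

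**Figure D1:**
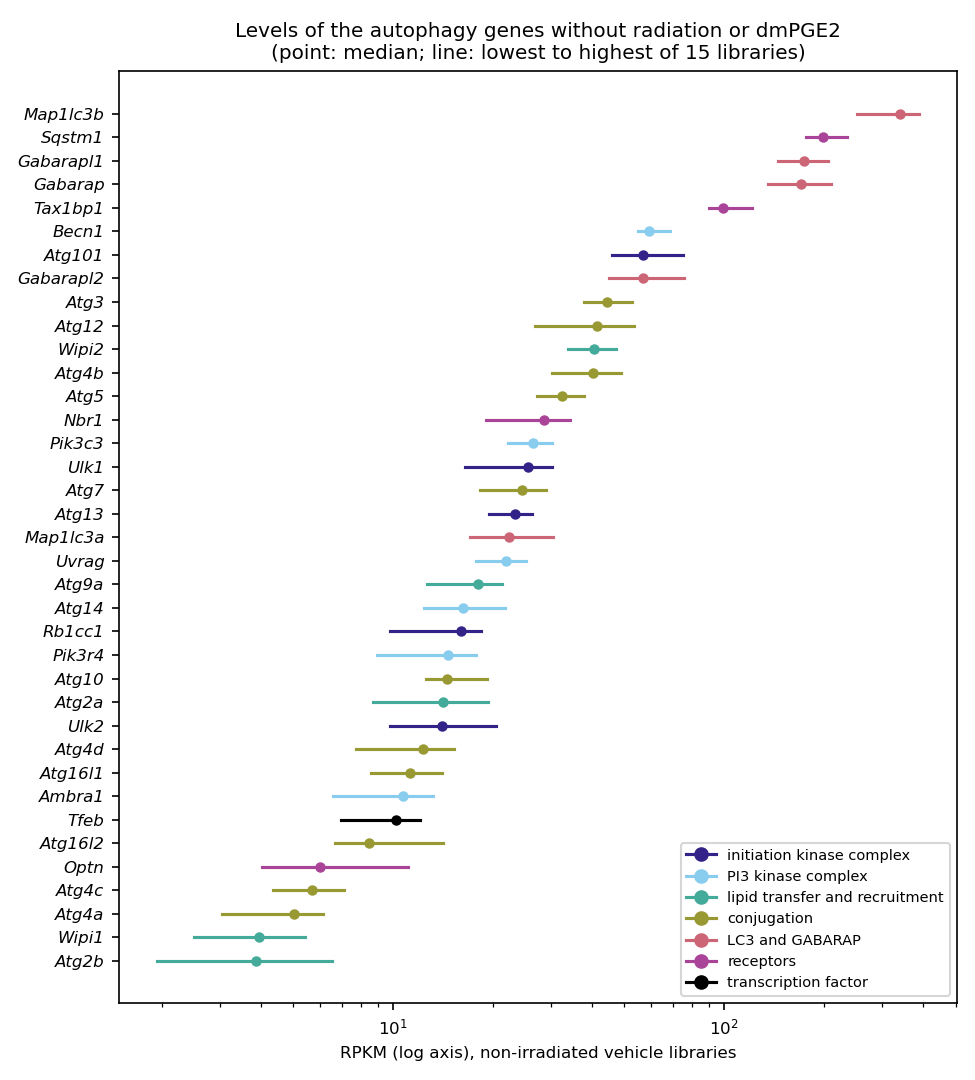
RPKM (log axis) of the 37 autophagy genes in the 15 non-irradiated vehicle libraries; points are medians, lines run from the lowest to the highest library, and colours give the role. Map1lc3b, Sqstm1, Gabarapl1 and Gabarap are the 4 genes with a median of at least 100 RPKM, and 6 genes have a median under 10.

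At 1 h after radiation, HSC of vehicle mice had more transcript of the initiating kinase Ulk1 and of the receptors Sqstm1, Nbr1 and Tax1bp1. Of the 37 genes, 7 were higher and 0 lower (edgeR quasi-likelihood test, Benjamini-Hochberg adjusted p under 0.05), while 16% of all genes tested were called, 8.65% higher and 7.31% lower. The irradiated and control libraries overlapped for every member, while 3.17% of all genes had groups apart. Ulk1 was at 85.7 to 157 CPM (median 133) without radiation and at 153 to 225 CPM (median 199) after it. The ranges overlap only at their edge, and the log2 fold change was 0.60 ± 0.15 (SE; n = 15 and 8), adjusted p = 0.00279. Sqstm1, the cargo receptor p62, went from 359 to 479 CPM (median 403) to 449.9 to 771 CPM (median 526), a log2 fold change of 0.46 ± 0.10, adjusted p = 4.72e-04. The ranges overlap, 6 of 8 irradiated libraries lay above all controls, and 1 of them at 771 CPM stood well above the rest. Nbr1, a related receptor, went from a median of 146 to 190.4 CPM (0.43 ± 0.10, adjusted p = 7.07e-04). Map1lc3a, a less abundant LC3 gene, had the largest log2 fold change of the members, 0.66 ± 0.14, adjusted p = 2.74e-04. The scaffold Rb1cc1 (0.35 ± 0.11), the protease Atg4d (0.29 ± 0.10) and Tax1bp1 (0.21 ± 0.07) made up the 7. Map1lc3b had a log2 difference of -0.07 ± 0.09, adjusted p = 0.711, and Tfeb of -0.19 ± 0.11, adjusted p = 0.252, which did not pass the test. By role, 2 of 5 genes of the kinase complex, 3 of 4 receptors, 1 of 5 LC3 and GABARAP genes, 1 of 11 conjugation genes and none of the 6 lipid kinase genes or 5 lipid transfer genes were called. The median log2 fold change of the 37 was 0.07 against -0.0027 over all genes tested. Against controls of the same sheet range 4 were called: Ulk1 (0.58), Sqstm1 (0.50), Map1lc3a (0.80) and Atg4d (0.37); Rb1cc1 then had 0.16 (adjusted p = 0.573), Nbr1 0.31 (0.0557) and Tax1bp1 0.21 (0.137). With same-tag controls summed, Rb1cc1 and Tax1bp1 lost their call (adjusted p = 0.0826 and 0.167). Among markers of other cells, the sum of 6 B cell markers was 38.9 to 50.8 CPM (median 42.7) after radiation and 54.1 to 76.1 CPM (median 62.9) in the controls, without overlap, and that of 7 megakaryocyte markers 653 to 1014 CPM (median 842) and 534 to 1056 CPM (median 659.8). The sum of 9 HSC markers was 3339 to 4319 CPM (median 3921) after radiation. The part of these markers in the result was not tested, and in sorted bulk samples fewer cells of a type and less RNA per cell cannot be told apart.

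dmPGE2 given before radiation went with lower transcript of 9 of the 37 genes at 1 h and higher transcript of none, against irradiated vehicle mice. In that comparison 14.8% of all genes tested were called, 7.04% higher and 7.77% lower. The largest log2 fold changes were those of Ulk1, of Atg14, which brings the lipid kinase to the site where the membrane forms, of the Atg4a row and of Atg101, a subunit of the Ulk1 complex. Ulk1 was at 67 to 128 CPM (median 109.5) with dmPGE2 against 153 to 225 CPM (median 199) with vehicle. The groups do not overlap, while the dmPGE2 range overlaps that of the non-irradiated controls; the log2 fold change was -0.94 ± 0.18 (SE; n = 8 and 8), adjusted p = 7.04e-05. Atg14 was at 19.3 to 41.8 CPM (median 28.3) against 46.6 to 64.4 CPM (median 52.3), again without overlap, -0.88 ± 0.14, adjusted p = 1.34e-06. Atg101 was at 40.8 to 59.98 CPM (median 47.2) against 73.5 to 90.7 CPM (median 77.4), -0.70 ± 0.10, adjusted p = 3.00e-07 and no overlap. The Atg4a row had -0.82 ± 0.16, adjusted p = 7.04e-05, with medians of 7.41 and 12.3 CPM. These 4 are the members whose groups do not overlap, as in 4.39% of all genes tested. Sqstm1 was at 277 to 467 CPM (median 399.8) against 449.9 to 771 CPM (median 526), -0.47 ± 0.12, adjusted p = 0.00239. Only the highest dmPGE2 library reaches into the vehicle range. The other called members were Rb1cc1 (-0.46 ± 0.13), the LC3 relative Gabarapl1 (-0.39 ± 0.11), Nbr1 (-0.32 ± 0.11) and Atg12 (-0.32 ± 0.11), the ubiquitin-like protein that is joined to Atg5. Map1lc3b, at 315 to 603 CPM (median 532) against 447 to 662 CPM (median 513), had -0.06 ± 0.11, adjusted p = 0.819, and Tfeb had 0.29 ± 0.12, adjusted p = 0.106; neither passed. By role, 3 of 5 kinase complex genes, 1 of 6 lipid kinase genes, 2 of 11 conjugation genes, 1 of 5 LC3 and GABARAP genes and 2 of 4 receptors fell. The median log2 fold change was -0.14 against 0.01 over all genes tested, and 31 of 37 values were below 0. Library 6 of the dmPGE2 group was the lowest of its group in the mean of the members; without it, 7 of the 9 were called, and Nbr1 (adjusted p = 0.114) and Atg12 (adjusted p = 0.123) were not. With dmPGE2 the sum of B cell markers was 39.9 to 71.6 CPM (median 49.3) and that of megakaryocyte markers 486 to 1058 CPM (median 647), each overlapping the vehicle range given above, and their part in the result was not tested.

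Without radiation, dmPGE2 went with lower Atg101, Atg14 and Gabarapl1 and higher Tax1bp1 at 1 h, 3 members lower and 1 higher. In that comparison 11.1% of all genes tested were called, 5.28% higher and 5.82% lower. Atg101 was at 41.4 to 53.3 CPM (median 47.2) with dmPGE2 and at 56.5 to 92.1 CPM (median 70.04) with vehicle, -0.60 ± 0.09, adjusted p = 2.72e-06 (n = 7 and 15). The 7 libraries with dmPGE2 all lie below the 15 controls, and no other member's groups were apart (2.63% of all genes). Atg14 was at 32.3 to 47.7 CPM (median 39.4) against 42.8 to 75.1 CPM (median 56.2), -0.51 ± 0.13, adjusted p = 0.00295, where 1 control reached into the dmPGE2 range. Gabarapl1 had -0.28 ± 0.10, adjusted p = 0.0473, and Tax1bp1 0.27 ± 0.08, adjusted p = 0.0139. Atg101 and Atg14 stayed called with same-tag controls summed and with controls of the same sheet range, and these others did not (adjusted p from 0.0508 to 0.274). Ulk1 was at 87.8 to 159 CPM (median 111) and had -0.15 ± 0.16, adjusted p = 0.695, Sqstm1 had -0.07 ± 0.11, adjusted p = 0.78, Map1lc3b -0.09 ± 0.10, adjusted p = 0.699 and Tfeb 0.12 ± 0.11, adjusted p = 0.614. These 4 did not pass the test. B cell markers summed to 48.1 to 62.4 CPM (median 56.4) and megakaryocyte markers to 492 to 753 CPM (median 582) with dmPGE2 alone, both overlapping the controls. The difference between the response to dmPGE2 with and without radiation was tested as an interaction, and 0 members passed. In that test 2.97% of all genes tested were called, 1.17% higher and 1.8% lower (5 members had an unadjusted p under 0.05). Ulk1 came closest, with a difference of -0.79 ± 0.24, adjusted p = 0.0508. DESeq2, run as an alternative, called 2 members there, Ulk1 (-0.78, adjusted p = 0.0302) and Nbr1 (-0.48, adjusted p = 0.041). For Sqstm1 this difference was -0.40 ± 0.16, adjusted p = 0.198, for Map1lc3b 0.03 ± 0.15, adjusted p = 0.961 and for Tfeb 0.17 ± 0.17, adjusted p = 0.746.

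Among mice given dmPGE2, radiation changed 0 of the 37 genes at 1 h by edgeR's test, with 3 members at an unadjusted p under 0.05. Here 0.377% of all genes tested were called, 0.356% higher and 0.0209% lower, and 0.391% had groups apart. When the column tag was fitted as a block 1 member was called, Atg14 at -0.54 (adjusted p = 0.0373); DESeq2 called 0. Ulk1 had -0.19 ± 0.18 and Sqstm1 0.06 ± 0.12 there, Map1lc3b -0.04 ± 0.11 and Tfeb -0.02 ± 0.13. Set against non-irradiated vehicle mice, irradiated dmPGE2 mice had 6 members lower and 1 higher at 1 h. Here 18.3% of all genes tested were called, 9.55% higher and 8.76% lower. Atg14 was the lowest, -1.0 ± 0.12, adjusted p = 4.29e-09, its 8 libraries all below the 15 controls as for no other member (3.3% of all genes had groups apart), followed by Atg101 (-0.56 ± 0.09), the Atg4a row (-0.47 ± 0.14), Gabarapl1 (-0.40 ± 0.09), Atg12 (-0.35 ± 0.10) and Ambra1 (-0.29 ± 0.11), a partner of Becn1, and Tax1bp1 was higher (0.30 ± 0.07). Ulk1 (-0.34 ± 0.16, adjusted p = 0.135) and Sqstm1 (-0.01 ± 0.10, adjusted p = 0.956) did not pass the test against these controls, nor did Map1lc3b (-0.13 ± 0.10) or Tfeb (0.10 ± 0.11). With same-tag controls summed Ambra1 lost its call (adjusted p = 0.0712), and with controls of the same sheet range Atg12 lost it (adjusted p = 0.207) and Atg4d gained one (0.33). The comparisons at 1 h share the non-irradiated vehicle libraries or the irradiated vehicle libraries, so their values are not independent of each other.

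**Figure D2:**
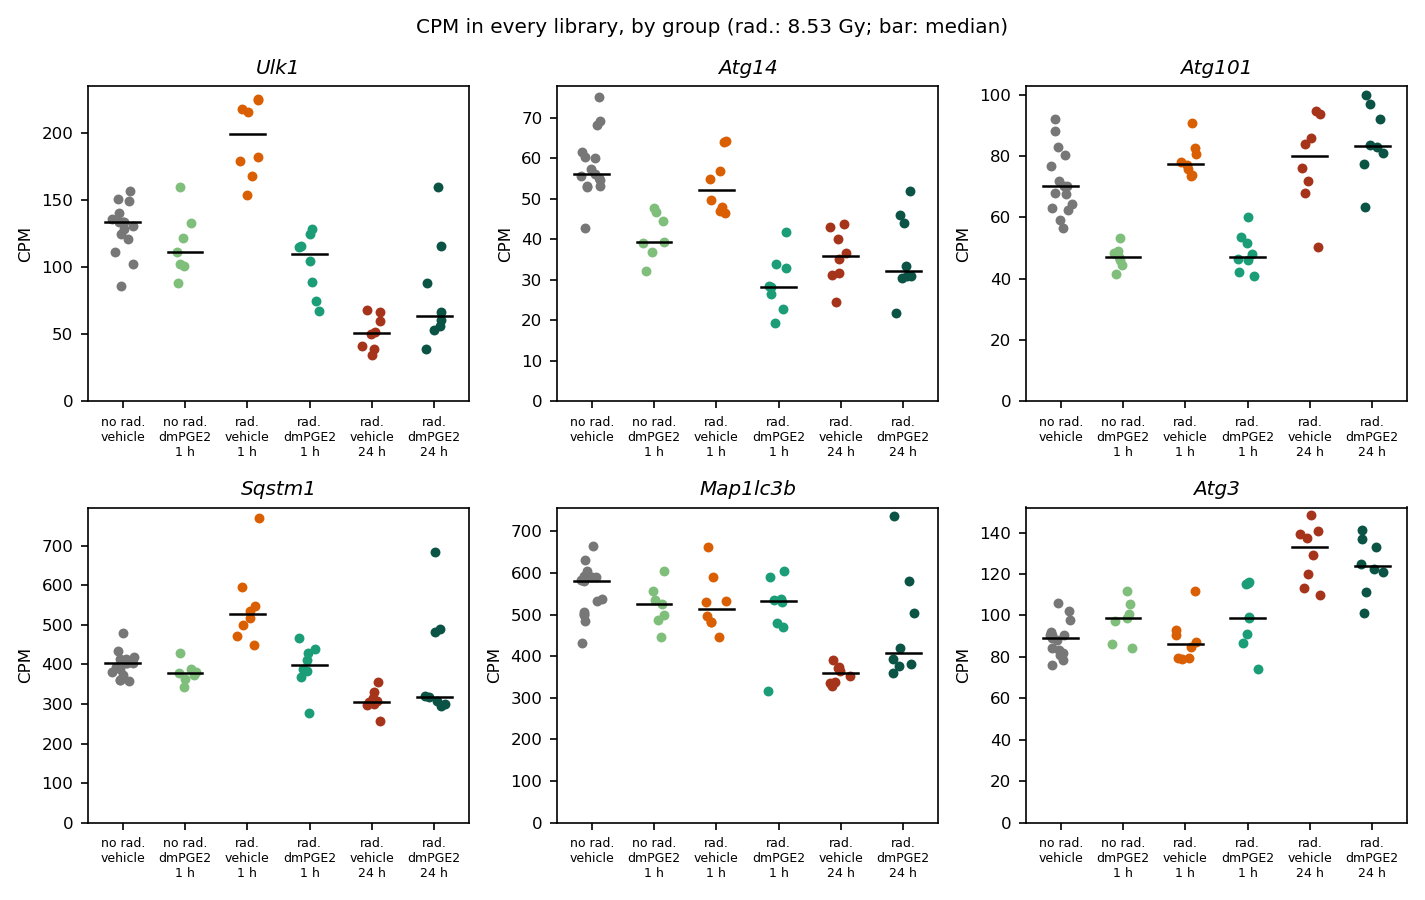
CPM of 6 genes in every library, by group; each point is 1 library, the bar is the median, and each axis starts at 0. Ulk1 is highest in irradiated vehicle libraries at 1 h (153 to 225 CPM) and lowest in those of 24 h (34.8 to 68), Atg101 is low in both dmPGE2 groups of 1 h, and Atg3 is highest at 24 h.

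By 24 h after radiation, vehicle HSC had less transcript of most of the machinery: 24 of the 37 genes were lower and 3 higher than in non-irradiated vehicle mice. Many genes differed in this comparison: 49.7% of all genes tested were called, 23.3% higher and 26.5% lower. These libraries and the controls share no tag, so radiation and a difference between tags cannot be told apart here. Ulk1 was at 34.8 to 68 CPM (median 51) against 85.7 to 157 CPM (median 133), a log2 fold change of -1.33 ± 0.16, adjusted p = 1.34e-09 (n = 8 and 15). All 8 irradiated libraries lay below all 15 controls, while at 1 h the difference had the opposite direction and the ranges overlapped. Within the kinase complex, Ulk2 (-0.69 ± 0.10), Rb1cc1 (-0.65 ± 0.12) and Atg13 (-0.35 ± 0.09) were also lower, and Atg101 (0.13 ± 0.09) was not called. Of the lipid kinase genes, Atg14 (-0.71 ± 0.12), Ambra1 (-0.65 ± 0.11), Uvrag (-0.36 ± 0.09), Pik3r4 (-0.34 ± 0.11) and Pik3c3 (-0.26 ± 0.09) were lower, and Becn1, their shared partner, had 0.07 ± 0.06, adjusted p = 0.285 and was not called. The lipid carriers Atg2a (-0.98 ± 0.16) and Atg2b (-0.73 ± 0.16) fell with Atg9a (-0.47 ± 0.15) and Wipi2 (-0.32 ± 0.07). Map1lc3b was at 328 to 390.4 CPM (median 359) against 432 to 663 CPM (median 580.0), -0.64 ± 0.10, adjusted p = 2.41e-07, without overlap. Gabarapl1 (-0.58 ± 0.09) and Sqstm1 (-0.37 ± 0.10, adjusted p = 0.002), at 257 to 355 CPM (median 306), were lower without overlap too. Among receptors Optn, a mitophagy receptor, fell by 0.89 on the log2 scale and Nbr1 by 0.58, and Tax1bp1 (0.02 ± 0.08) was not called. Tfeb was at 17 to 26.1 CPM (median 19.7) against 19.7 to 34 CPM (median 28.9), -0.46 ± 0.11, adjusted p = 3.74e-04, with overlap.

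The exceptions were Atg3, the Atg4a row and Gabarap. Atg3, the enzyme that hands LC3 to its lipid, was at 110.1 to 148 CPM (median 133) after radiation and at 75.9 to 106 CPM (median 89.1) without it, 0.55 ± 0.07, adjusted p = 8.52e-09, and its 8 irradiated libraries lay above the 15 controls. The Atg4a row had 0.45 ± 0.13, adjusted p = 0.00406 and Gabarap 0.23 ± 0.07, adjusted p = 0.00625. Atg3 was the single conjugation gene with its own coordinates that rose, while Atg10 (-0.48 ± 0.11), the enzyme that hands on Atg12, Atg12 (-0.36 ± 0.10), Atg7 (-0.22 ± 0.08), the enzyme that activates both systems, and the protease Atg4b (-0.19 ± 0.07) fell. In all, 5 members had groups that do not overlap; in all genes tested that share was 10.6%. The median log2 fold change of the members was -0.36 against -0.06 over all genes tested. With controls of the same sheet range 25 members were called, of which 24 were among the 27; Pik3c3 (-0.19), Pik3r4 (-0.19) and Gabarap (0.10) lost their call and Atg4d (-0.29) gained one, Ulk1 stood at -1.31 and Atg3 at 0.49. With same-tag controls summed, Ulk1 stood at -1.34 and Atg3 at 0.55, and Atg4b lost its call (-0.18, adjusted p = 0.0596). Markers of other cells moved with this comparison. The sum of 10 neutrophil markers was 86.9 to 592 CPM (median 103) in these libraries and 271 to 1774 CPM (median 561) in the controls, that of 7 megakaryocyte markers 891 to 1928 CPM (median 1112) and 534 to 1056 CPM (median 659.8), and that of 9 HSC markers 2199.5 to 3103 CPM (median 2634) and 3197 to 4930.1 CPM (median 3995). For neutrophil markers, irradiated library 8 had the 592 CPM and the next highest, library 3, had 174. The sum of 6 T and NK cell markers was 101.3 to 202 CPM (median 126) and 41 to 131 CPM (median 74.6), and that of 6 endothelial markers 76.3 to 87.5 CPM (median 84.2) and 95.3 to 143 CPM (median 126). None of these markers was at 0 in every library of a group. The sum of 8 erythroid markers was 25.7 to 51.1 CPM (median 32.7) after radiation and 39.8 to 224 CPM (median 104) in the controls, and 4 of the 8, the globin genes, were at 0 in every library of both groups. Stromal markers summed to 15.5 to 62.9 CPM (median 41) and 35.1 to 88.2 CPM (median 60.4). The part of these markers in the result was not tested.

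At 24 h after radiation, 12 of the 37 genes were higher with dmPGE2 than with vehicle and 0 lower, and the count depended on 3 libraries and on the fit. In that comparison 23.9% of all genes tested were called, 12.4% higher and 11.5% lower. The called members were Optn, Wipi1, Ulk1, Map1lc3a, Atg2b, Atg9a, Atg2a, Gabarapl1, Map1lc3b, Sqstm1, Ulk2 and Uvrag, with log2 fold changes from 0.29 to 0.98; Tfeb had -0.16 ± 0.12, adjusted p = 0.383. The dmPGE2 and vehicle groups overlap for every member, while 1.96% of all genes had groups apart. Ulk1 was at 38.5 to 159.7 CPM (median 63.3) with dmPGE2 and 34.8 to 68 CPM (median 51) with vehicle, 0.63 ± 0.18, adjusted p = 0.00645 (n = 8 and 8). Its values were 88.1 to 159.7 CPM in libraries 5 to 7, 38.5 to 66.5 CPM in the other 5, and 34.8 to 68 CPM with vehicle. Sqstm1 (0.37 ± 0.12, adjusted p = 0.0136) was at 482 to 683 CPM in libraries 5 to 7, 294 to 320.4 CPM in the other 5, and at 257 to 355 CPM with vehicle. Map1lc3b (0.39 ± 0.11, adjusted p = 0.00561) was at 504 to 736 CPM in libraries 5 to 7, 359 to 419.8 CPM in the other 5, and at 328 to 390.4 CPM with vehicle. For these 3 genes the other 5 dmPGE2 libraries overlap the vehicle range and libraries 5 to 7 lie above it. Optn (0.98 ± 0.22, adjusted p = 8.55e-04) was at 24.7 to 31 CPM in libraries 5 to 7, 7.3 to 15 CPM in the other 5, and Wipi1 (0.92 ± 0.25, adjusted p = 0.00447) at 12.3 to 17.2 CPM in libraries 5 to 7, 4.7 to 10.2 CPM in the other 5. In 9 of the 12 called genes libraries 5 to 7 were the highest 3 of the 8; the exceptions were Ulk2, Uvrag and Atg2b. With all 8 libraries kept but only the 2 groups compared in the fit, 3 of the 12 were called (1507 genes in all). The remaining called members had 0.55 ± 0.16 for Map1lc3a, 0.52 ± 0.18 for Atg2b, 0.50 ± 0.17 for Atg9a, which lies on the vesicles that seed the membrane, 0.48 ± 0.17 for Atg2a and 0.40 ± 0.11 for Gabarapl1.

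Without libraries 5 to 7, 0 of the 37 genes were called at 24 h by edgeR's test, with 4 at an unadjusted p under 0.05, and 1123 genes in all were called, against 3421 with them; DESeq2 was not run without them. Ulk1 then had a log2 fold change of 0.09 (adjusted p = 0.783), Map1lc3b 0.11 (0.546), Optn 0.25 (0.492) and Wipi1 0.42 (0.346), the adjusted p in parentheses. Atg2b kept its size, 0.53, with an adjusted p of 0.107. In a fit of the 24 h libraries alone with sex as a term, 3 were called, Atg2b (0.53), Map1lc3b (0.38) and Gabarapl1 (0.39). In males 8 members were called higher, with 1051 genes higher and 1150 lower in all, and in females 0, with 24 and 20 in all, but the difference between the sexes itself gave 0 calls among members and among all 13714 genes tested, with 10 members at an unadjusted p under 0.05; DESeq2 called 0 members and 43 genes. Ulk1 differed between the sexes by 0.94 ± 0.38 (male minus female; adjusted p = 0.348). Library 8 is the single male of the 24 h dmPGE2 group besides libraries 5 to 7. Its mean log2 CPM over the members was 5.80, within the 5.74 to 5.89 of the females. The split by sex is therefore not separate from that of libraries 5 to 7. Libraries 5 to 7 had summed HSC markers of 3776 to 4562 CPM against 2793 to 3483 CPM in the other 5, and summed endothelial markers of 132 to 145 CPM against 79.6 to 99.6 CPM. Between all dmPGE2 and all vehicle libraries of 24 h, neutrophil markers summed to 282 to 846 CPM (median 485) with dmPGE2, and megakaryocyte markers to 531 to 1304 CPM (median 742). T and NK cell markers summed to 60.8 to 125 CPM (median 86.5) with dmPGE2 and stromal markers to 30.2 to 396 CPM (median 70.3). The part of these markers in the result was not tested.

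**Figure D3:**
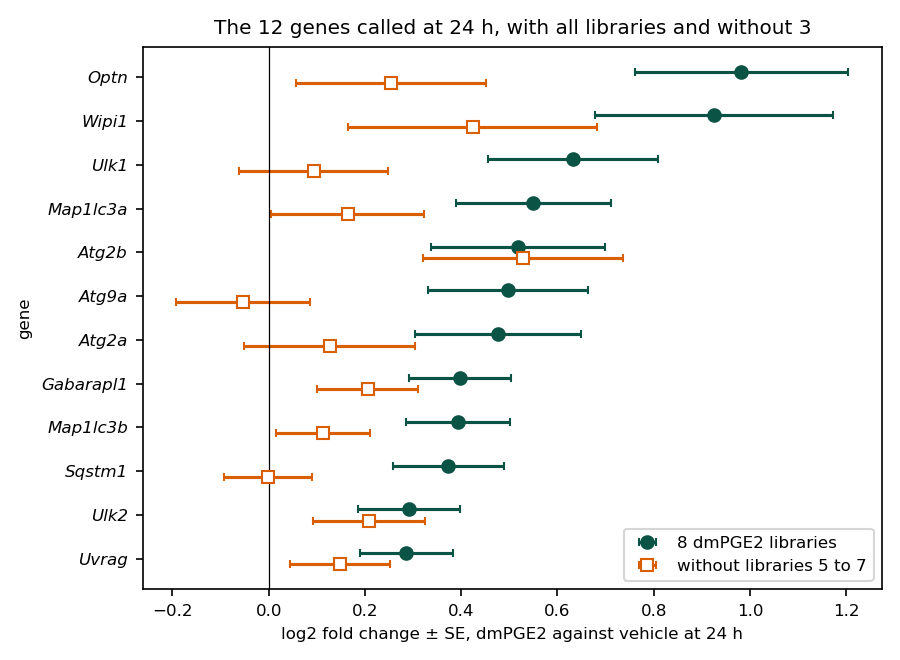
log2 fold change (± SE) of dmPGE2 against vehicle at 24 h for the 12 called genes, with all 8 dmPGE2 libraries (filled) and without libraries 5 to 7 (open). Ulk1 goes from 0.63 to 0.09, and Atg2b stays at 0.52 and 0.53.

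Against non-irradiated vehicle mice, irradiated dmPGE2 mice at 24 h had 12 members lower and 6 higher. Here 36.4% of all genes tested were called, 19% higher and 17.3% lower, and 0 members had groups apart (3.21% of all genes). These groups share no tag either. Ulk1 was lower, -0.70 ± 0.16, adjusted p = 3.91e-04, as were Atg14 (-0.69 ± 0.12), Tfeb (-0.62 ± 0.11, adjusted p = 9.97e-06), Rb1cc1 (-0.61 ± 0.12), Atg2a (-0.51 ± 0.15) and Ambra1 (-0.41 ± 0.11), and Map1lc3b had -0.24 ± 0.10, adjusted p = 0.0401. Wipi1 (0.55 ± 0.21) and Atg3 (0.48 ± 0.07) were higher. Tfeb was at 14 to 23 CPM (median 17.7), and the controls at 19.7 to 34 CPM (median 28.9), with overlap. Sqstm1 had 0.00 ± 0.10 with all libraries. Without libraries 5 to 7, Sqstm1 was lower, -0.37 (adjusted p = 3.53e-04), Ulk1 stood at -1.24 and Wipi1 at 0.05 (adjusted p = 0.891), and 22 members were called, 2 higher and 20 lower, and 5557 genes in all, against 5206 with them. With controls of the same sheet range 2 members were higher and 12 lower, 12 of these 14 among the 18, and 3400 genes in all were called; Atg101, Atg2a, Wipi1, Gabarap, Gabarapl2 and Nbr1 lost their call. With same-tag controls summed 4 were higher and 10 lower, and Wipi1, the Atg4a row, Atg10 and Map1lc3b lost their call (adjusted p from 0.0588 to 0.121). The median log2 fold change was -0.18 against -0.02 over all genes tested.

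The response to dmPGE2 in irradiated HSC differed between 1 h and 24 h for 19 members, 18 with a higher and 1 with a lower value at 24 h. In that test 25.4% of all genes tested were called, 12.9% higher and 12.6% lower. Ulk1 had the largest difference, 1.57 ± 0.25, adjusted p = 5.09e-06, from -0.94 at 1 h to 0.63 at 24 h. Optn (1.2 ± 0.31), Wipi1 (1.0 ± 0.35), Map1lc3a (0.97 ± 0.23), Atg14 (0.90 ± 0.19), Atg2a (0.87 ± 0.24), Sqstm1 (0.84 ± 0.16) and Atg2b (0.84 ± 0.26) followed, Map1lc3b had 0.45 ± 0.15, adjusted p = 0.0239, and Tfeb was the member with a lower value, -0.45 ± 0.17, adjusted p = 0.05, at the threshold itself. Without libraries 5 to 7, 8 members were called: Ulk1 (1.03), Atg2b (0.85), Atg101 (0.70), Atg14 (0.61), Gabarapl1 (0.60), Map1lc3a (0.59), Ulk2 (0.48) and Sqstm1 (0.47). With vehicle, 25 members were lower and 2 higher at 24 h than at 1 h after radiation. Here 50.9% of all genes tested were called, 23.4% higher and 27.5% lower, and 13 members had groups that do not overlap, 19.5% of all genes. Ulk1 had -1.93 ± 0.18, adjusted p = 6.09e-13, Atg2a -1.33 ± 0.17, Optn -1.28 ± 0.22, Map1lc3a -1.08 ± 0.16, Atg2b -1.03 ± 0.18, Nbr1 -1.01 ± 0.11, Rb1cc1 -0.99 ± 0.13, Sqstm1 -0.83 ± 0.12 and Map1lc3b -0.56 ± 0.11; Tfeb, at -0.27 ± 0.12, adjusted p = 0.0612, was not called. Time coincides with the sheet range in these libraries, and the 24 h and 1 h libraries share no tag. After subtraction of the controls of each range 17 members were called, Ulk1 at -1.89, Sqstm1 at -0.92 and Atg2b, not called, at -0.59 (adjusted p = 0.0676). With dmPGE2, 8 members were lower and 5 higher at 24 h than at 1 h. Here 36.3% of all genes tested were called, 18.1% higher and 18.2% lower, and 2 members had groups apart (6.35% of all genes). Atg101 (0.80 ± 0.10), the Atg4a row (0.80 ± 0.16) and Gabarap (0.47 ± 0.08) were higher. Tfeb (-0.72 ± 0.12), Nbr1 (-0.51 ± 0.11), Rb1cc1 (-0.51 ± 0.13), Atg2a (-0.46 ± 0.17) and Atg7 (-0.33 ± 0.09) were lower, and Ulk1 had -0.36 ± 0.18, adjusted p = 0.103, Sqstm1 0.01 ± 0.12 and Map1lc3b -0.11 ± 0.11. Without libraries 5 to 7, 22 members were called with dmPGE2, Ulk1 at -0.90 among them, and after subtraction of the controls of each range 4 were.

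**Figure D4:**
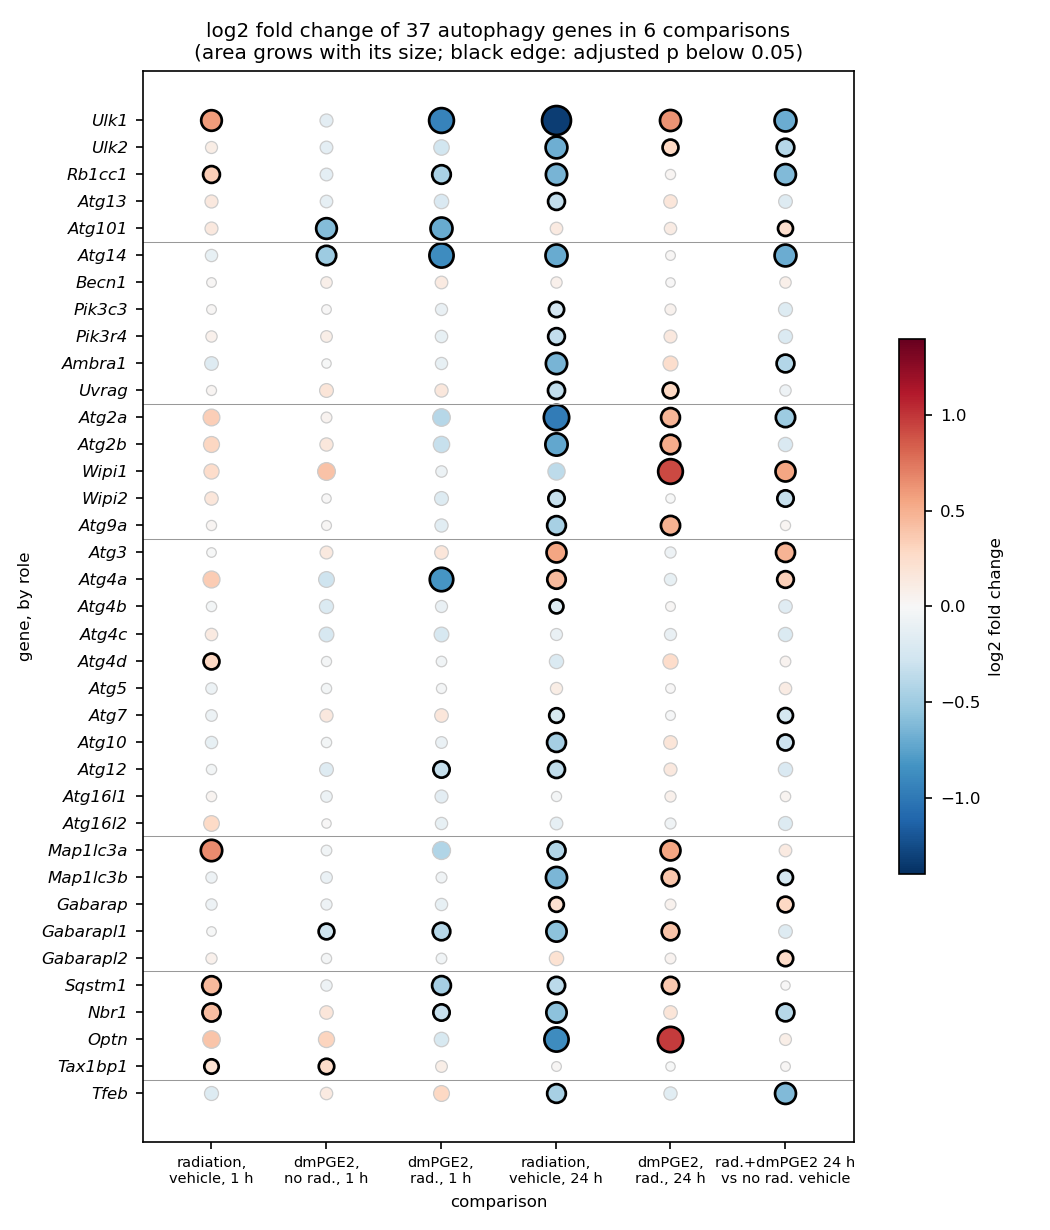
log2 fold change of the 37 genes (rows, grouped by role) in 6 comparisons (columns); colour and area give the value, and a black edge marks an adjusted p below 0.05 in edgeR's test. With all libraries, the fourth column (radiation with vehicle at 24 h) holds 24 lower and 3 higher genes, and the fifth (dmPGE2 at 24 h) 12 higher ones, which are not called without 3 of its libraries.

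The mean log2 CPM over the 37 genes in each library follows the same groups. It was 6.09 ± 0.04 (SD, n = 15) without radiation or dmPGE2, 6.07 ± 0.08 with dmPGE2 alone (n = 7), 6.23 ± 0.05 after radiation with vehicle at 1 h (n = 8) and 6.01 ± 0.13 with dmPGE2 (n = 8). At 24 h it was 5.76 ± 0.06 with vehicle (n = 8) and 5.94 ± 0.19 with dmPGE2 (n = 8). The irradiated vehicle libraries of 1 h, from 6.17, all lay above the controls, whose highest was 6.15, and those of 24 h, up to 5.82, all lay below them. In the 24 h dmPGE2 group libraries 5 to 7 had 6.25, 6.15 and 6.09, and the other 5 had 5.74 to 5.89.

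**Figure D5:**
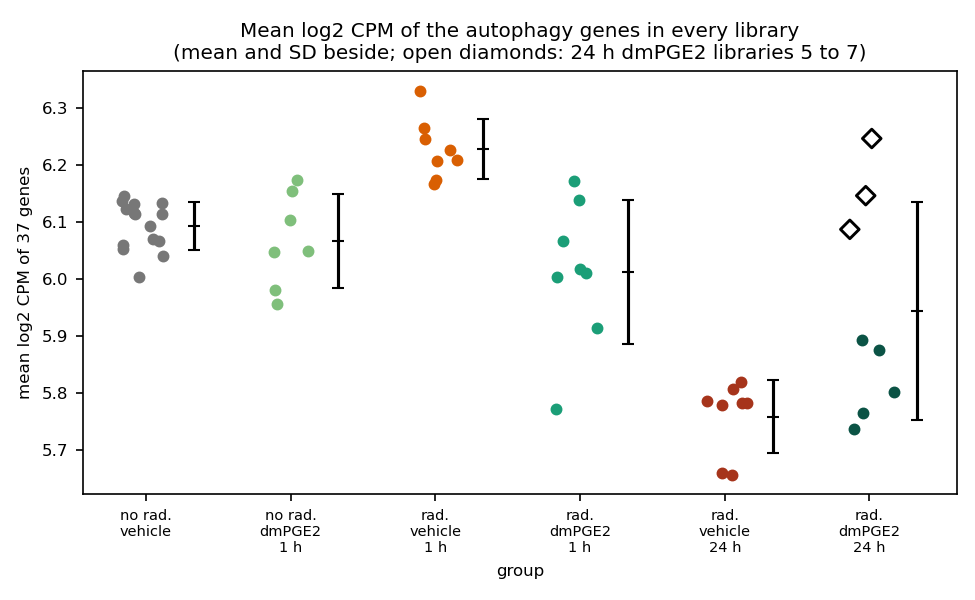
Mean log2 CPM of the 37 genes in every library, by group, with the mean and SD beside the points; open diamonds are the 24 h dmPGE2 libraries 5 to 7. These 3 have 6.09 to 6.25, and the other 5 of their group lie below all 15 non-irradiated vehicle libraries.

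Genes that control or continue the pathway were counted in 6 lists, chosen with earlier results of these data known. Their counts stand beside these shares of all genes called: 16% for radiation with vehicle at 1 h, 14.8% for dmPGE2 before radiation at 1 h, 11.1% for dmPGE2 alone, 49.7% for radiation at 24 h and 23.9% for dmPGE2 at 24 h. Control by mTORC1 and AMPK gave 9 higher and 5 lower of 35 tested after radiation with vehicle at 1 h. Ddit4l (5.73 ± 0.33), Sesn2 (4.1 ± 0.13) and Ddit4 (2.54 ± 0.29), whose proteins restrain mTORC1, had the largest values, and Stk11, the kinase that activates AMPK, fell (-0.79 ± 0.19). With dmPGE2 before radiation this list had 6 higher and 6 lower of 35 at 1 h, with Ddit4l (-4.13 ± 0.39), Sesn2 (-3.8 ± 0.16), the AMPK subunit Prkab2 (-0.87 ± 0.30) and Flcn (-0.71 ± 0.09), which acts on mTORC1 at the lysosome, all lower. Among mice given dmPGE2, radiation still moved Ddit4l (2.04 ± 0.45, adjusted p = 0.0108) and Sesn2 (0.67 ± 0.16, adjusted p = 0.021), 2 of 35. dmPGE2 without radiation went with higher Ddit4 (3.02 ± 0.29) and Prkaa2 (0.84 ± 0.24) and lower Flcn (-0.33 ± 0.08). At 24 h after radiation with vehicle, 13 were higher and 10 lower of 35 against controls, led by Ddit4l (6.64 ± 0.34), Sesn2 (3.06 ± 0.13), Ddit4 (1.22 ± 0.29) and Lamtor4 (0.90 ± 0.09), a part of the lysosomal anchor of mTORC1. In this and the other counts for radiation at 24 h, tag and group cannot be told apart. With dmPGE2 at 24 h, 5 were higher and 2 lower of 35, with Deptor (1.04 ± 0.17), Fnip2 (0.63 ± 0.21) and Fnip1 (0.47 ± 0.18) higher and Tbc1d7 (-0.41 ± 0.12) lower, 7 of 35 and under the 23.9% of all genes.

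Transcriptional control and p53-linked genes had 5 higher and 1 lower of 17 after radiation at 1 h. Trp53inp1, a p53 target whose protein binds LC3, had 3.28 ± 0.15, Trp53inp2 1.99 ± 0.34, Tfe3, a close relative of Tfeb, 1.25 ± 0.11 (adjusted p = 5.76e-14) and Mcl1 0.95 ± 0.09, while Tfeb itself was not called. With dmPGE2 before radiation the list had 3 higher and 3 lower of 17: Trp53inp1 (-3.72 ± 0.20) and Tfe3 (-1.03 ± 0.13) were lower, and Foxo3 (0.71 ± 0.20) and Foxo1 (0.57 ± 0.20), transcription factors of autophagy genes, higher. Without radiation dmPGE2 gave 4 higher and 1 lower of 17, with Foxo3 at 1.1 ± 0.17 and Foxo1 at 0.83 ± 0.18. At 24 h after radiation, 4 were higher and 4 lower of 17, under the 49.7% of all genes, with Trp53inp1 (2.59 ± 0.15) and Bcl2l1 (1.15 ± 0.08), which restrains Becn1, higher and the acetyltransferases Crebbp (-1.02 ± 0.21) and Ep300 (-0.98 ± 0.16) lower. There dmPGE2 gave 4 higher and 1 lower of 17, with Foxo1 (0.79 ± 0.20), Crebbp (0.70 ± 0.23) and Mcl1 (0.32 ± 0.10) higher and Bcl2l1 (-0.64 ± 0.10) lower.

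Downstream of the machinery, lysosome genes of the CLEAR network had 2 higher and 3 lower of 42 after radiation at 1 h, 3 higher and 2 lower of 42 with dmPGE2 before it, 13 higher and 10 lower of 42 after radiation at 24 h and 11 higher and 2 lower of 42 with dmPGE2 at 24 h. Both 1 h counts, 5 of 42, were under the 16% and 14.8% of all genes called there, and at 24 h 49.7% and 23.9% of all genes were called. The sulfatase Sgsh (-2.34 ± 0.18), the protease Ctsf (-1.08 ± 0.13) and the glucosidase Gaa (-0.83 ± 0.09) fell with radiation at 24 h and Gla (0.82 ± 0.15) rose. With dmPGE2 Ctsf (1.28 ± 0.14), Ctsl (1.1 ± 0.13), Sgsh (1.06 ± 0.19) and Neu1 (0.63 ± 0.13) were higher at that time, while Ctsl had been lower at 1 h (-0.40 ± 0.13). Selective autophagy and mitophagy genes had 2 higher and 11 lower of 17 with radiation at 24 h, where 26.5% of all genes were lower. Among them were Calcoco1 (-1.08 ± 0.16), the mitophagy kinase Pink1 (-1.02 ± 0.17), Wdfy3 (-0.72 ± 0.17) and the mitophagy receptor Bnip3 (-0.65 ± 0.11), all lower. With controls of the same sheet range, and also with same-tag controls summed, 2 were higher and 8 lower of 17 (5681 and 6311 genes called in all). With dmPGE2 at 24 h 6 higher and 2 lower of 17 were called, including Pink1 (0.86 ± 0.19), Bnip3 (0.53 ± 0.12), Calcoco1 (0.50 ± 0.17) and Usp30 (0.43 ± 0.17), and at 1 h Tbk1, the kinase that activates receptors, was lower (-0.46 ± 0.09). Of the other autophagosome genes, Ei24, a p53-induced protein of the endoplasmic reticulum, was higher after radiation at 1 h (0.67 ± 0.07) and at 24 h (1.88 ± 0.07) and lower with dmPGE2 at 1 h (-0.69 ± 0.08), where this list had 0 higher and 4 lower of 11, with Tmem41b (-0.54 ± 0.13) and Nrbf2 (-0.36 ± 0.11). Genes of fusion with the lysosome had 1 higher and 4 lower of 13 with radiation at 24 h, under the 49.7% of all genes, where Vps39 fell (-0.55 ± 0.09), and 2 higher and 2 lower of 13 with dmPGE2 at 1 h, where the fusion protein Snap29 fell (-0.50 ± 0.13). The counts with dmPGE2 at 24 h above use libraries 5 to 7. Without them, 1123 of all genes were called, and 6 higher and 1 lower of 42 lysosome genes were called, with Ctsf, Ctsl, Sgsh and Neu1 among them, 2 higher and 0 lower of 35 of the mTORC1 and AMPK genes, with Deptor among them, 0 higher and 1 lower of 17 of the transcriptional and p53-linked genes, which was Bcl2l1, and 0 of the selective autophagy, other autophagosome and fusion genes. With controls of the same sheet range, the calls lost among the genes named here were those of Stk11 with radiation at 1 h, Wdfy3 with radiation at 24 h and Prkaa2 with dmPGE2 alone.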

How the data were processed

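RNA of sorted HSC was made into libraries with SMART-Seq v4 and Nextera XT, per the labels' protocols. STAR 2.5.2b, featureCounts of Subread 1.5.1 and the mm10 build are named in the submitters' processing notes; the annotation, strand and multimapping settings were not given in the sources used here. Deposited values are whole-number counts of reads per gene in 54 libraries, without molecular identifiers. The 24 h column names carry no radiation term and the 1 h names no time, so columns were matched to groups by name and by the number of samples. The labels give 7 or 8 samples for each treatment and time, the non-irradiated vehicle samples of both times form 1 group of 15, and p-values measure the spread between these libraries.

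Genes were filtered with filterByExpr (count minimum 10; 14320 of 24421 kept), scaled by TMM and tested with edgeR 4.0.16 in R 4.3.3 (robust quasi-likelihood F test over 6 group means, 48 residual degrees of freedom), with Benjamini-Hochberg adjustment over all genes tested and a threshold of 0.05. The SE of a log2 fold change is its size over the square root of F. CPM are TMM-scaled, RPKM use the deposited lengths, mean log2 CPM use a prior count of 3, and marker sums are CPM without TMM. DESeq2 1.42.0, RLE scaling, no filter, fits of only the groups compared, a tag block, sex and left-out libraries were alternatives. The code was tested on simulated data. In each comparison the named members were up to 8 called ones with the largest absolute log2 fold change (mean log2 CPM at least 2), besides Ulk1, Tfeb, Sqstm1 and Map1lc3b, with up to 4 called genes from each related list. Other members were named to complete a count or a role, after their values were seen. The members and lists were chosen with earlier results of these data known.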

Additional observations from a re-analysis of the deposited data

Results flagged for a closer look

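In 19 of 185 combinations of a gene with a group of 7 or 8 libraries (10.3%), 1 library lay far from the others of its group by Dixon's criterion, which chance meets in about 1 in 20. In the non-irradiated dmPGE2 group these were Wipi2 in library 3 (179.9 CPM, highest; nearest other 161), Atg4b in library 1 (118 CPM, highest; nearest other 102). In the 1 h irradiated vehicle group these were Ambra1 in library 3 (28.7 CPM, lowest; nearest other 46), Atg3 in library 4 (112 CPM, highest; nearest other 93), Atg4c in library 3 (29 CPM, highest; nearest other 21.1), Gabarapl2 in library 3 (87.1 CPM, highest; nearest other 62.4). In the 1 h irradiated dmPGE2 group these were Wipi2 in library 6 (113 CPM, lowest; nearest other 156), Atg4c in library 3 (22.2 CPM, highest; nearest other 17.9), Map1lc3a in library 6 (18.2 CPM, lowest; nearest other 25.7), Map1lc3b in library 6 (315 CPM, lowest; nearest other 471), Sqstm1 in library 6 (277 CPM, lowest; nearest other 368). In the 24 h irradiated vehicle group these were Atg2a in library 8 (22.4 CPM, lowest; nearest other 40.2), Atg16l1 in library 8 (15.2 CPM, lowest; nearest other 33.7), Map1lc3a in library 6 (8.38 CPM, lowest; nearest other 15.6), Gabarapl1 in library 5 (143 CPM, lowest; nearest other 204), Gabarapl2 in library 8 (79.5 CPM, highest; nearest other 66.7), Optn in library 6 (3.23 CPM, lowest; nearest other 6.9). In the 24 h irradiated dmPGE2 group these were Atg16l1 in library 7 (16.5 CPM, lowest; nearest other 34.4), Tax1bp1 in library 5 (515 CPM, highest; nearest other 358). Of the 19, 4 were the lowest value in library 6 of the 1 h irradiated dmPGE2 group, the library with the lowest mean over the 37 genes in that group.

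The response to dmPGE2 in irradiated HSC differed between 24 h and 1 h for 19 genes by the interaction test of edgeR with Benjamini-Hochberg adjustment. The differences (24 h minus 1 h, log2) were Ulk1 1.57, Ulk2 0.56, Rb1cc1 0.49, Atg13 0.39, Atg101 0.82, Atg14 0.90, Atg2a 0.87, Atg2b 0.84, Wipi1 1.0, Atg9a 0.65, Atg4a 0.71, Atg12 0.46, Map1lc3a 0.97, Map1lc3b 0.45, Gabarapl1 0.79, Sqstm1 0.84, Nbr1 0.50, Optn 1.2 and Tfeb -0.45. The value named Atg4a is that of the Atg4a row. All 1 h libraries belong to the lower and all 24 h libraries to the upper sheet range, so time and range cannot be told apart here, although each response is a difference within 1 range. Without the 24 h dmPGE2 libraries 5 to 7, 8 of the 19 were called.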

How the results depend on the processing

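Counts of called genes moved by over 1.5 times in the following cases. For dmPGE2 at 24 h, 12 members (3421 genes) became 0 without libraries 5 to 7 (1123 genes), 0 without libraries 3 and 5 to 7 (854), 3 with only the groups compared in the fit (1507) and 3 in a fit of the 24 h libraries alone with sex as a term (1815), which changes the libraries fitted as well. For radiation with vehicle at 1 h, 7 members (2285 genes) became 4 with controls of the same sheet range (1277), and for dmPGE2 without radiation 4 became 2 with same-tag controls summed (1128 genes) and 2 with controls of the same range (1108). For dmPGE2 by radiation at 1 h, 0 members (426 genes) became 2 with DESeq2 and 3 with only the groups compared (665). For dmPGE2 by time, 19 (3641 genes) became 8 without libraries 5 to 7 (2401) and 8 without libraries 3 and 5 to 7 (2318). For time with vehicle, 27 (7291 genes) became 17 after subtraction of same-range controls (3853); for time with dmPGE2, 13 (5195 genes) became 22 without libraries 5 to 7 and 4 after that subtraction (2115). For irradiated dmPGE2 mice at 24 h against controls, 5206 genes became 3400 with same-range controls, and for dmPGE2 by sex 0 genes became 43 with DESeq2. Fewer samples enter the fits that leave libraries out; otherwise the cause was not tested.

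Signs changed for Atg9a with dmPGE2 at 24 h (-0.053 without libraries 5 to 7), for Sqstm1 with dmPGE2 at 24 h (-9e-04 without libraries 5 to 7, -0.0061 without libraries 3 and 5 to 7), against controls (-0.37 and -0.39) and over time with dmPGE2 (-0.36 and -0.38), and for Wipi1 against controls (-0.063 without libraries 3 and 5 to 7). Of 926 alternative values of 109 results of named members, 830 kept direction and side of the threshold, 80 lost the call, 8 gained one and 8 changed sign, none of these with another scaling (RLE or DESeq2). With the column tag as a replicate block, 9 members were called for dmPGE2 in irradiated HSC at 1 h, 12 at 24 h, 8 for radiation with vehicle at 1 h, 3 for dmPGE2 without radiation and 1, Atg14 at -0.54, for radiation under dmPGE2. The block was not fitted for 24 h libraries against controls or against 1 h libraries, which share no tag with them. No label used here says what the tags mark. At 1 h the libraries of 1 tag have consecutive sheet numbers, but not every same-tag pair deviated together, so the tags were not taken as a pairing: between irradiated vehicle and dmPGE2 libraries of 1 h, 7 of 8 same-tag pairs had a correlation of deviations over 0.1 (median 0.15) and 6 of 8 libraries were most alike their own tag, a hint from the data, and at 24 h 0 of 16 pairs were over 0.1. Controls of the same sheet range, summed controls, subtraction over time and the fits without library 6 of 1 h or library 3 of 24 h alone were chosen after seeing the data. Libraries 5 to 7 of the 24 h dmPGE2 group were likewise singled out by how they stood apart in these same data. In simulated data 44% of 1.5-fold changes were recovered for dmPGE2 in irradiated HSC at 1 h over 14148 genes, so that smaller changes could be missed. Only 50 genes, drawn at random from all genes, were changed at that fold, while 2121 genes were called in the data. The adjustment was therefore stricter in the simulation, and the share is not that of the real comparison or of the members.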
